A study of Mus musculus with 14 samples.

Results

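The constitutive proteasome subunits and activators were the mouse genes whose symbols begin with Psma, Psmb, Psmc, Psmd, Psme or Psmg followed by a number. The 3 interferon-inducible catalytic subunits Psmb8, Psmb9 and Psmb10 were left out, as were the pseudogenes. The rule found 44 of the 53801 genes in the tables. They comprised 16 genes of the 20S core (8 of the alpha ring and 8 of the beta ring), 17 of the 19S cap (6 ATPases and 11 other subunits), 3 chaperones that assemble the cap, 4 activators and 4 chaperones that assemble the core. Enough reads for testing were present for 43 of them. The exception was Psmb11, the thymus-specific beta subunit, which had at most 1 count in any tumor. The symbols Psmc3ip and Psme2b carry further letters and were not members.

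The proteasome is the cell's main machine for degrading ubiquitin-tagged proteins. Its 20S core is a barrel of alpha and beta rings, with the protease sites on Psmb5, Psmb6 and Psmb7, and its 19S cap recognizes ubiquitin, unfolds the substrate and feeds it into the barrel. Interferon gamma induces Psmb8, Psmb9 and Psmb10, which replace the constitutive protease subunits in newly built cores, and the PA28 activator made of Psme1 and Psme2, and the peptides these proteasomes make are a source of the antigens shown to CD8 T cells on MHC class I.

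The data were bulk RNA-seq of 14 subcutaneous tumors of CT26, a mouse colon carcinoma line that carried a library of DNA barcodes, grown in female BALBc mice several weeks old. Mice bore a tumor on each flank and were injected with control IgG or anti-PD-1, and residual tumors were taken after the treatment course, so that the RNA came from cancer and host cells together. Control IgG was given to the mice of 5 tumors (14L, 14R, 16R, 17R and 20R, from 4 mice). Of the tumors treated with anti-PD-1, 5 were responders (24L, 26R, 30L, 30R and 35L, 4 mice) and 4 were non-responders (29L, 32R, 33L and 33R, 3 mice), as the study called them by their size after treatment. The comparison between the latter groups asks what accompanies response among tumors from the same cancer cells, and the comparisons with control IgG ask what differs from tumors without the antibody to PD-1. Tumors with the same number shared a mouse, and p-values take each tumor as a replicate. In bulk tissue, fewer cells of a type and less RNA per cell cannot be told apart. Below, a row of values follows the order in which the tumors of a group are named here.

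Totals of the expected counts were 33237744 to 48481461 per tumor. Markers of carcinoma epithelium (Krt8, Krt18, Epcam and Cdx2) were detected, at a summed 9.94 to 44.8 CPM (counts scaled to library size with TMM factors). The library of non-responder 33R stood apart from the other 13. Its log2 CPM, relative to the mean of all tumors, had a slope of -0.305 for each doubling of gene length, whereas the slopes of the others lay between -0.097 and 0.075. Its mean fragment length, estimated from effective lengths, was also the highest (287.8 bases, against 268.7 to 282.4). Many proteasome genes are short, so results are also given without 33R and after removal of the dependence on gene length in every library, called the length trend below. T cell markers were higher in responders than in non-responders (4 of 5 genes called, summed level 27.5 to 50.2 and 14.7 to 18.1 CPM). Dendritic cell markers were higher too (3 of 3 called, 9.36 to 17.2 and 3.91 to 5.03 CPM), and erythroid markers lower (2 of 3 called, 41.6 to 201.0 and 268.6 to 1458.5 CPM). Of the NK, macrophage, neutrophil and fibroblast lists 1 gene each was called higher, and of the B cell, endothelial, epidermis, muscle, proliferation and carcinoma epithelium lists 0 were called.

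The promoters of Psme1 and Psme2 are shown because the PA28 pair was called higher in responders after removal of the length trend. Those of Psmb8 and Psmb5 stand beside them as an interferon-induced and a constitutive subunit for the same protease position. Sequences are from RefSeq (GRCm38.p6) and run from 250 bases before to 50 bases after the annotated start, 5′ to 3′ on the gene's strand. Capitals in the first 3 would mark an interferon-stimulated response element (GAAA and GAAA with 2 bases between them) or a gamma-activated site (TTCNNNGAA). In Psmb5 they mark the core of the antioxidant response element (TGACNNNGC), a motif of the NRF factors that regulate constitutive proteasome genes.
Psme1, chr14:55578244-55578543, plus strand: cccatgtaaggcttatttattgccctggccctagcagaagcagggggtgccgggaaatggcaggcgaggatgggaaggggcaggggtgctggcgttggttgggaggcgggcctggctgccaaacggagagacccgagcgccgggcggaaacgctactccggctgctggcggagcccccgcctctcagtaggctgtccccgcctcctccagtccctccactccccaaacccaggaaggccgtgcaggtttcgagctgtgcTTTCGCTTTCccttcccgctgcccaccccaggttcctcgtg
Psme2, chr14:55590972-55591271, minus strand: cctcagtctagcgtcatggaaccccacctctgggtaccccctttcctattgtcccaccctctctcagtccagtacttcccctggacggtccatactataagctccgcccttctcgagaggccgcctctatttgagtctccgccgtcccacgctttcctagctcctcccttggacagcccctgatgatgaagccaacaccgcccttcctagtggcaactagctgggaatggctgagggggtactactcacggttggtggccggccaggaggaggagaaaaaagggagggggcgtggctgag
Psmb8, chr17:34197945-34198244, plus strand: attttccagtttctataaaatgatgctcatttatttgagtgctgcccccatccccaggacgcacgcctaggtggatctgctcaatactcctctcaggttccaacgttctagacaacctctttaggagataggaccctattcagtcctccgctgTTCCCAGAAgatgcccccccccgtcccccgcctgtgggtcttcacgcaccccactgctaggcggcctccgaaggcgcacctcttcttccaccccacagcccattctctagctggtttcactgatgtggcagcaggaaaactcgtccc
Psmb5, chr14:54617946-54618245, minus strand: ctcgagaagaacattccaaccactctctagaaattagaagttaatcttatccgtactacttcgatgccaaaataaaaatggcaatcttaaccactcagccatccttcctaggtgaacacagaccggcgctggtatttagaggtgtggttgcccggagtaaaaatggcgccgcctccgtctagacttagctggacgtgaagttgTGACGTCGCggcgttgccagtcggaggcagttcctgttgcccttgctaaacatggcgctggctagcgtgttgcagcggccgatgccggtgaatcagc

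Psme1 held the interferon-stimulated element at bases 9 to 18 after its start, read on the opposite strand. Psme2 held neither interferon motif. Psmb8 held a gamma-activated site at bases -97 to -89, and Psmb5 the antioxidant core at -47 to -39. The promoters of Psmb9 and Psmb10, the other interferon-inducible subunits, held neither interferon motif. Promoters were found for 36 of the 44 genes, and not for Psma8, Psmb1, Psmb2, Psmb7, Psmc3, Psmd3, Psmd7 or Psmg2. Searched on both strands, the interferon-stimulated element was present in 5 of the 36 (Psmb3, Psmd4, Psmd9, Psme1 and Psmg4), against 3.99% of all genes with a promoter and 3.44% of all promoters of this length. The gamma-activated site was present in Psmd2 and Psmg1, against 9.55% of all genes and 8.30% of all promoters. The antioxidant core was present in 6 (Psmb5, Psmb6, Psmc6, Psmd12, Psmd9 and Psme4), against 14.0% of all genes and 12.4% of all promoters. These are matches of letters in a window only.
In GRCm38 (mm10), Psme1 (chr14:55578123-55581529, plus strand) and Psme2 (chr14:55587441-55591113, minus strand) lie close together in opposite orientation. Psmb5 (chr14:54614119-54618022, minus strand) and Psmb11 (chr14:54621433-54629556, plus strand) are another close pair on that chromosome.

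The summed level of the proteasome genes was similar in all 14 tumors, while single genes ranged widely. Genes are ranked by level here only as TPM, which divides by length. The 44 genes summed to 6119.7 to 7453.0 TPM per tumor, or 0.612% to 0.745% of all TPM. Psma7, a subunit of the alpha ring, was highest at 500.9 ± 63.1 TPM (mean ± SD, n = 14) and exceeded the next gene by more than its SD. Psme2 followed at 408.3 ± 110 and Psme1 at 352.7 ± 79.4, and from Psme2 through Psmb4 and Psmb1 down to Psma3 no gene exceeded the next by more than its own SD. The beta ring, Psmb11 set aside, was the most even part, from 174.9 TPM for Psmb2 to 304.3 for Psmb4, a ratio of 1.74. The alpha ring without Psma8 ran from 69.3 TPM for Psma2 to 500.9 for Psma7, a ratio of 7.23.
The cap was lower, with a median of 138.1 TPM over its 6 ATPases and 107.9 over its 11 other subunits. Psmc3 was the highest ATPase at 220.5 TPM, and Psmd14, the deubiquitinase of the lid, the highest other subunit at 162.9. Assembly chaperones ran from 22.7 TPM for Psmd9 to 116.4 for Psmg4. The activators spread most, from 14.6 TPM for Psme4 to 408.3 for Psme2. The testis-specific alpha subunit Psma8 was at 0.296 TPM, from 8 to 22 counts per tumor.
Apart from Psma8 and Psmb11, the genes that varied most between tumors were Psme2, Psme1 and Psme4, with coefficients of variation of 26.9%, 22.5% and 19.1%. Psmd8, a lid subunit, varied least at 4.72%.

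**Figure D1:**
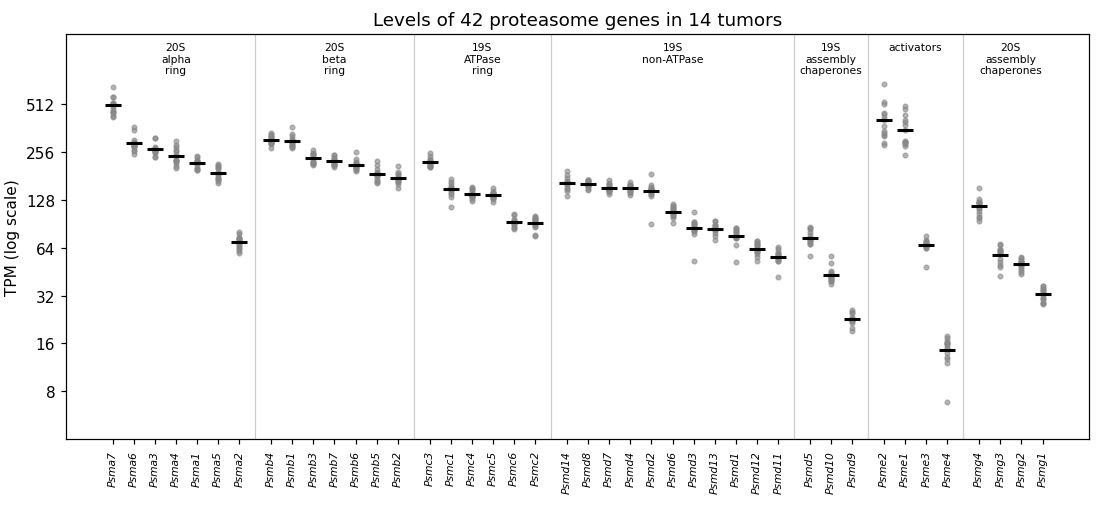
TPM (log scale) of 42 proteasome genes, ordered by mean within each part, with the 14 tumors as gray points and their mean as a black bar. Psma7 was highest at a mean of 500.9 TPM and Psme4 lowest at 14.6, and Psme1 and Psme2 had the widest spread among the abundant genes.

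The family as a whole showed small differences between responders and non-responders. Among the 43 genes tested, 0 were called higher in responders and 1 lower (edgeR's quasi-likelihood test, adjusted p under 0.05), whereas of all 16287 genes 5.08% were called higher and 4.80% lower. Unadjusted p-values were under 0.05 for 18 of the 43, against 27.7% of all genes. The log2 fold change was below 0 for 37 genes and above 0 for 6, against 49.2% of all genes below 0, and its median was -0.20, against 0.01 over all genes. By part the median was -0.28 for the core (15 genes), -0.18 for the cap (17 genes) and 0.23 for the 4 activators. Without 33R it was -0.07 for the core, -0.10 for the cap and 0.23 for the activators. Responders lay wholly below non-responders in 4 genes (Psma8, Psmd12, Psmd14 and Psmg3), against 6.04% of all genes, and wholly above them in 0, against 6.80%.
Non-responder 33R was often the highest tumor and responder 24L often the lowest. 33R was the highest of the 14 tumors in 32 of the 43 genes and the lowest in 3, whereas over all genes it was highest in 23.2% and lowest in 24.2%. 24L was the lowest in 24 of the 43, against 12.0% of all genes. The mean log2 CPM of the 43 genes, relative to its average over tumors, was 0.38 in 33R and -0.10 to 0.09 in the other 3 non-responders. It was -0.18 in 24L and -0.07 to -0.03 in the other 4 responders. Control tumors ranged from -0.10 in 16R to 0.20 in 14R, whose slope on gene length (-0.097) was the second lowest.
Without 33R, 0 of the 43 genes were called (3.01% of all genes higher and 1.79% lower), and the median of the family was -0.08. With the length trend removed, the median was -0.12, and 3 genes were called higher (Psma4, Psme1 and Psme2) and 2 lower (Psmd14 and Psmg3), against 6.39% and 6.42% of all genes. Both changes together, a setting added after the data were seen, gave a median of -0.02 and 1 call, Psme2 higher (log2 fold change 0.56, adjusted p = 0.0451), against 3.67% of all genes higher and 2.72% lower. On the scale of log2(TPM + 1), where the median of all genes was itself 0.17, the family median was 0.07, and Psma4, Psme1 and Psme2 were called higher and 0 genes lower, against 12.1% and 1.17% of all genes (limma).

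**Figure D2:**
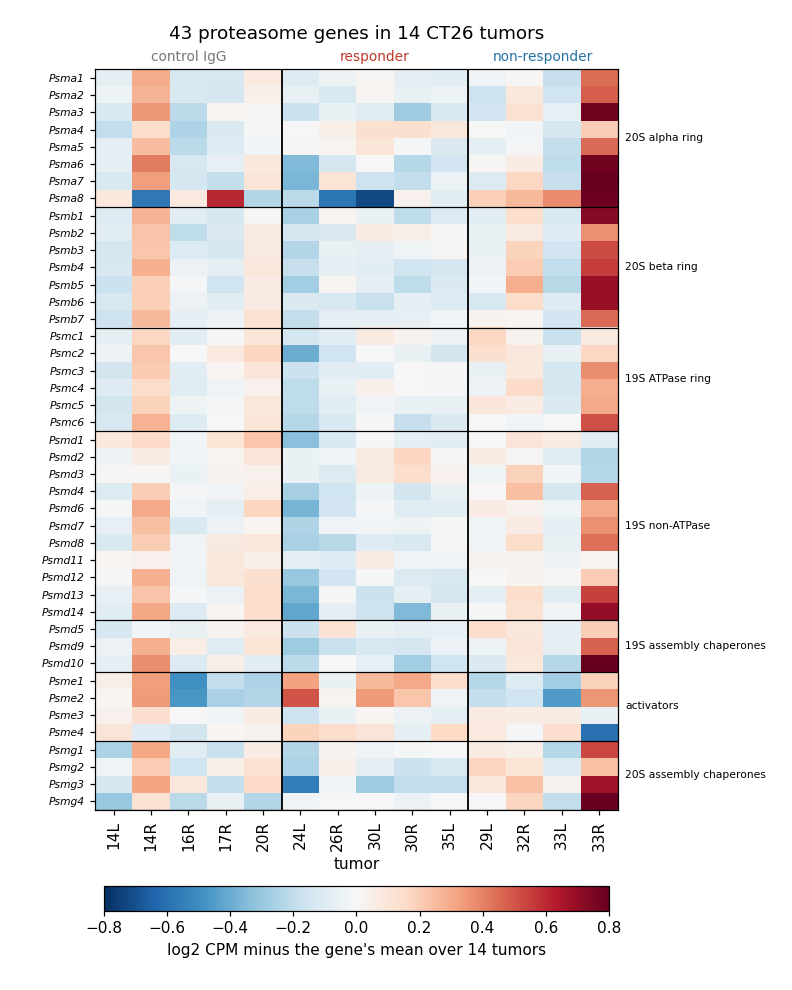
Log2 CPM of the 43 tested genes minus each gene's mean over the 14 tumors (color bar), with tumors in columns by group and genes in rows by part; colors saturate at the ends of the bar. Non-responder 33R is red in most rows but blue in Psmd1, Psmd2, Psmd3, Psme3 and Psme4, responder 24L is blue in most rows, and Psme1 and Psme2 are red in responders 24L, 30L and 30R, in control 14R and in 33R.

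The dependence on length was visible within the family. Of 26 genes under 1500 bases, 33R was the highest tumor in 24, and of 16 longer genes (Psma8 set aside) in 7, against 48.2% and 14.5% of all genes in these classes. In 3 long genes it was the lowest tumor (Psmd2, Psmd3 and Psme4). The medians of the log2 fold changes were -0.23 for the short and -0.14 for the long genes, and without 33R they were -0.07 and -0.09. Across the 42 genes the log2 fold change and log2 length had r = 0.34 and rho = 0.37, and -0.06 and -0.07 without 33R. Over all genes tested they had r = 0.25 and rho = 0.35. With the length trend removed, the 42 genes had -0.21 and -0.23, against -0.03 and -0.01 over all genes. Without 33R as well, they had -0.28 and -0.36. A dependence of the opposite sign thus remained among these genes, so calls in those fits are not free of length. Genes are not independent replicates, and these values are descriptions.

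**Figure D3:**
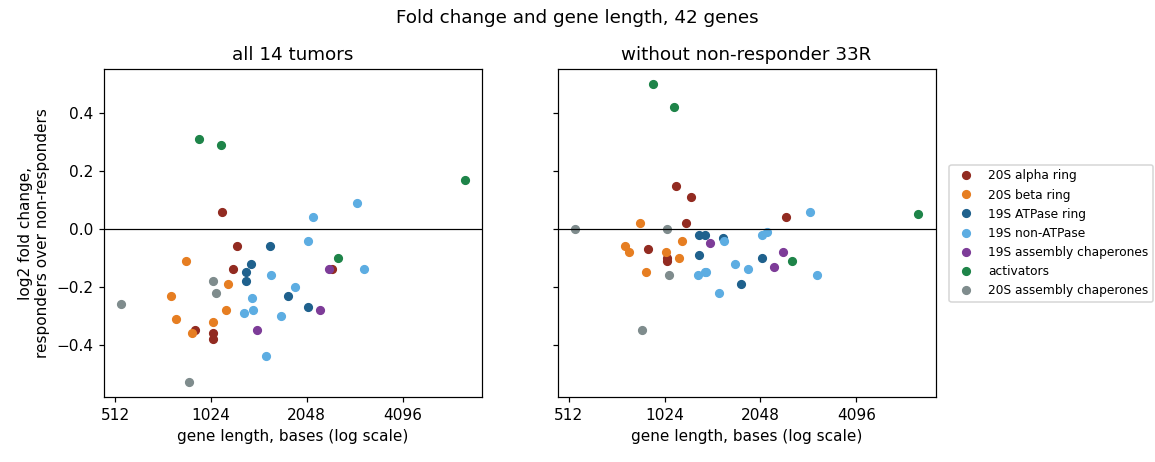
Log2 fold change, responders over non-responders, against gene length in bases (log scale) for 42 genes, colored by part, with all 14 tumors (left) and without non-responder 33R (right). The shortest genes reach down to -0.53 on the left, and most of them lie closer to 0 on the right. Psmg3, the lowest on the left, is at -0.35 on the right, and Psme1 and Psme2 stand apart at 0.42 and 0.50.

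The alpha ring forms the gate of the core. Psma7, the most abundant of its genes, had 211.0, 292.8, 242.2, 237.5 and 262.7 CPM in responders, 251.6, 305.1, 238.8 and 478.6 in non-responders and 249.8, 342.0, 246.5, 237.8 and 290.6 in controls. The groups overlapped, with 33R above all others (log2 fold change of responders relative to non-responders -0.35, SE 0.18, adjusted p = 0.221). Without 33R the log2 fold change was -0.07.
Psma4 was the 1 alpha subunit with a positive value (0.06, SE 0.09, adjusted p = 0.680), and with the length trend removed it was called higher (0.21, adjusted p = 0.0397). Its CPM was 172.7 to 189.3 in responders, 157.1 to 198.2 in non-responders and 146.0 to 190.7 in controls. The other ubiquitous alpha genes, Psma1, Psma2, Psma3, Psma5 and Psma6, had log2 fold changes of -0.38 to -0.06 and adjusted p of 0.161 to 0.778.
Psma8 was near the limit of detection, with 0.301, 0.233, 0.211, 0.358 and 0.327 CPM in responders, 0.399, 0.417, 0.453 and 0.602 in non-responders and 0.369, 0.235, 0.368, 0.53 and 0.297 in controls. Its responders and non-responders did not overlap, but the difference was not called at this depth (-0.69, SE 0.28, adjusted p = 0.131).

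The beta ring carries the protease sites. Psmb5, the chymotrypsin-like subunit, had 81.2, 99.98, 93.1, 85.5 and 90.6 CPM in responders, 97.0, 120.6, 84.5 and 159.2 in non-responders and 87.3, 112.4, 97.4, 88.04 and 102.9 in controls. Responders lay inside the range of the non-responders except for 24L, and 33R was the highest tumor (-0.36, SE 0.15, adjusted p = 0.133). Without 33L, the lowest non-responder, Psmb5 was called lower (-0.47, adjusted p = 0.0441), and without 33R its value was -0.15.
Psmb6, the caspase-like subunit, was nearly constant in responders, at 87.7, 86.8, 83.8, 89.9 and 87.99 CPM. It had 86.9, 105.0, 88.3 and 153.6 CPM in non-responders and 86.9, 108.5, 91.9, 89.6 and 99.5 in controls. The difference of -0.31 (SE 0.14, adjusted p = 0.155) was -0.08 without 33R.
Psmb7, the trypsin-like subunit, had 149.2, 160.9, 160.9, 162.5 and 167.7 CPM in responders, 173.3, 172.7, 152.8 and 233.1 in non-responders and 151.7, 204.1, 161.4, 164.8 and 185.1 in controls. The groups overlapped (-0.19, SE 0.11, adjusted p = 0.295), and without 33R the value was -0.04.
Psmb4, a structural subunit and the most abundant beta gene, had 198.4, 214.4, 213.1, 202.3 and 205.0 CPM in responders. Non-responders had 218.1, 259.1, 196.3 and 331.3 CPM and controls 205.9, 274.5, 217.9, 214.6 and 240.2. The responders again sat within the non-responders' range (-0.28, SE 0.13, adjusted p = 0.171, and -0.10 without 33R). The remaining Psmb1, Psmb2 and Psmb3 had log2 fold changes of -0.32, -0.11 and -0.23, and 0 of the 7 beta genes were called.

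In the cap, the ATPase ring unfolds substrates. Psmc2 had the smallest p of its 6 genes, with 89.8, 106.2, 118.8, 113.5 and 106.9 CPM in responders, 129.2, 126.0, 114.3 and 132.5 in non-responders and 114.9, 137.9, 118.5, 124.9 and 133.1 in controls. Only 30L among responders exceeded a non-responder, 33L (-0.23, SE 0.09, adjusted p = 0.105). Without 33R the value was -0.19 (adjusted p = 0.266).
Psmc3, the most abundant ATPase gene, had 175.0, 185.5, 186.4, 198.0 and 195.1 CPM in responders, 189.5, 209.5, 178.6 and 254.7 in non-responders and 178.4, 228.0, 186.2, 199.1 and 211.3 in controls, with overlap (-0.15, SE 0.10, adjusted p = 0.373, and -0.02 without 33R). The other 4 ranged from -0.27 for Psmc6 to -0.06 for Psmc1.
Psmd14 (Rpn11), which removes ubiquitin chains from substrates, had the lowest log2 fold change among the cap subunits. It had 130.8, 165.2, 155.1, 136.2 and 168.0 CPM in responders, 173.2, 189.2, 171.5 and 283.6 in non-responders and 164.1, 216.2, 162.1, 175.8 and 192.5 in controls. All responders lay below all non-responders, by a narrow gap between 35L and 33L. The log2 fold change was -0.44 (SE 0.15, adjusted p = 0.0687), -0.33 with the length trend removed (adjusted p = 0.0443) and -0.22 without 33R (adjusted p = 0.254). It was also called with DESeq2 (adjusted p = 0.0374), with the mouse as a random effect in limma-voom (0.0279) and without 29L (0.0464), but not with 1 library per mouse (-0.36, adjusted p = 0.0532). The random-effect fit estimated a negative correlation between tumors of a mouse (-0.282), so its calls make no allowance for tumors of a mouse being alike.
Psmd12, a lid subunit, also did not overlap between these groups, at 70.1 to 85.9 CPM in responders and 86.9 to 99.7 in non-responders (-0.20, SE 0.08, adjusted p = 0.126). The ubiquitin receptor Psmd4 was at -0.29 (adjusted p = 0.0968), and was called lower with 1 library per mouse (adjusted p = 0.0317) and without 33L (0.0391), while without 33R it was at -0.16 (adjusted p = 0.348). Psmd8 was at -0.28 (adjusted p = 0.0974), and was called in the same random-effect fit (0.0465), but not with 1 library per mouse (-0.26, 0.0536), and was at -0.15 without 33R. The scaffolds Psmd1 and Psmd2 were at -0.14 and 0.09, and the lid subunits Psmd3, Psmd6, Psmd7, Psmd11 and Psmd13 at 0.04, -0.24, -0.16, -0.04 and -0.30. Of the 17 cap genes, 0 were called in either direction.

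**Figure D4:**
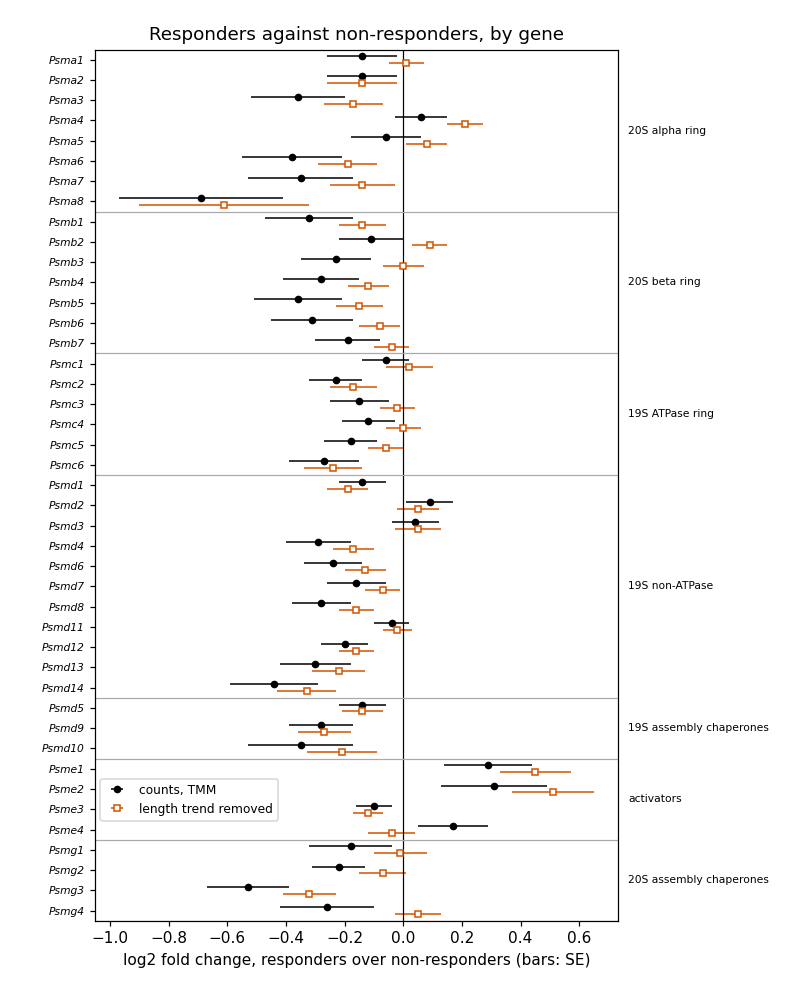
Log2 fold change, responders relative to non-responders, for 43 genes by part, with bars for the SE. Black circles are from counts with TMM factors and orange squares from the fit with the length trend removed. Most genes lie left of 0, most of them nearer to 0 in the second fit, while Psme1 and Psme2 move right, to 0.45 and 0.51.

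The assembly chaperones held the 1 gene called in this comparison. Psmg3 (PAC3), which with Psmg4 (PAC4) helps to arrange the alpha ring, had 20.0, 28.6, 24.0, 25.5 and 25.5 CPM in responders, 31.1, 34.5, 29.9 and 46.9 in non-responders and 26.6, 36.5, 31.2, 25.7 and 32.6 in controls. Responders were below all non-responders, while controls overlapped both (mean ± SD 24.7 ± 3.11, n = 5; 35.6 ± 7.77, n = 4; and 30.5 ± 4.45, n = 5). Psmg3 was lower in responders than in non-responders by 0.53 on the log2 scale (SE 0.14, edgeR adjusted p = 0.0347). It was also called with the length trend removed (-0.32, adjusted p = 0.0331). The call was lost without 33R (-0.35, adjusted p = 0.122), 24L (0.0906), 30L (0.0640), 30R (0.0686), 32R (0.0684) or 35L (0.0546). It was also lost as log2(TPM + 1) (-0.28, adjusted p = 0.0744) and in a fit of these groups alone (0.0797), and with both the length trend and 33R removed (-0.28, 0.113).
Its partner Psmg4 had 25.4, 25.9, 26.0, 25.1 and 25.8 CPM in responders, 25.9, 29.1, 22.6 and 45.0 in non-responders and 20.99, 28.0, 22.2, 24.8 and 21.96 in controls. The responders were almost equal and 33R was far above the rest (-0.26, SE 0.16, adjusted p = 0.299), and without 33R the value was 0.00. Psmg1 and Psmg2, which form the PAC1 and PAC2 pair, were at -0.18 and -0.22, and at 0.00 and -0.16 without 33R.
Psmd9, a chaperone of the cap base, had 31.6, 33.9, 35.3, 35.1 and 37.2 CPM in responders, 37.4, 41.2, 36.5 and 53.2 in non-responders and 37.2, 46.8, 39.9, 35.9 and 41.5 in controls. Responder 35L overlapped with non-responder 33L (-0.28, SE 0.11, adjusted p = 0.113, and -0.13 without 33R). Psmd5, another of these chaperones, had 119.6, 146.0, 129.8, 128.2 and 128.6 CPM in responders, 148.2, 143.2, 128.0 and 154.2 in non-responders and 122.4, 132.7, 129.1, 137.2 and 142.2 in controls, with overlap (-0.14, SE 0.08, adjusted p = 0.270, and -0.08 without 33R). Psmd10 (gankyrin) was at -0.35 (adjusted p = 0.222, and -0.05 without 33R).

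The PA28 genes lay on the other side of 0. Psme1 had 305.9, 235.3, 292.5, 301.8 and 269.3 CPM in responders, 208.4, 227.3, 202.9 and 278.2 in non-responders and 253.2, 308.9, 174.0, 214.0 and 205.7 in controls. All responders exceeded 3 of the 4 non-responders, and 33R lay inside the responders' range. The difference of 0.29 (SE 0.15) was not called (adjusted p = 0.218). It was 0.45 and called with the length trend removed (adjusted p = 0.0258), and 0.42 without 33R (adjusted p = 0.127).
Psme2 had 322.4, 230.8, 287.5, 265.3 and 223.1 CPM in responders, 199.5, 203.3, 165.9 and 290.3 in non-responders and 229.7, 287.5, 164.6, 190.3 and 192.9 in controls. Again all responders lay above 29L, 32R and 33L, and 33R was above 4 of the 5 responders. The log2 fold change was 0.31 (SE 0.18, adjusted p = 0.279), 0.51 with the length trend removed (adjusted p = 0.0264) and 0.50 without 33R (adjusted p = 0.101). Psme2b, a gene on chromosome 11 that may share fragments with Psme2, had 11.8 to 20.5 CPM in responders and 11.1 to 13.5 in non-responders (0.41, adjusted p = 0.115).
On the scale of log2(TPM + 1) the differences were 0.55 for Psme1 (limma adjusted p = 0.0179) and 0.60 for Psme2 (0.0274), beside the median of all genes given above. Psme1 was at 433 ± 57.8 TPM in responders (n = 5), 293 ± 3.48 in non-responders (n = 4) and 320 ± 64.5 in controls (n = 5). Within each tumor, the mean log2 CPM of Psme1 and Psme2 exceeded that of the core without Psma8. CPM is not divided by gene length, so this excess serves to compare tumors and not the levels of the genes. The excess was 0.67 to 1.23 in responders, 0.34 to 0.50 in non-responders and 0.29 to 0.79 in controls. On this measure, for which no share over all genes was computed, responders and non-responders did not overlap. The T cell, dendritic and erythroid markers given above also differed between these groups, and their part in the result was not tested.
The remaining activators had values near 0. Psme3 (PA28 gamma), the nuclear form, had 116.2, 125.6, 132.0, 126.5 and 123.5 CPM in responders, 136.5, 135.9, 135.9 and 126.1 in non-responders and 133.6, 143.2, 130.6, 128.5 and 136.0 in controls, with overlap (-0.10, SE 0.06, adjusted p = 0.322). Psme4 (PA200), the longest gene of the family, had 85.01, 83.0, 80.7, 71.6 and 84.0 CPM in responders, 79.5, 74.8, 82.7 and 49.8 in non-responders and 80.8, 70.1, 67.9, 76.1 and 76.7 in controls. Its lowest tumor was 33R (0.17, SE 0.12, adjusted p = 0.375), and with the length trend removed its value was -0.04.

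The interferon-inducible subunits, which are not members, were set against their constitutive counterparts within each tumor. The ratio of Psmb8 to Psmb5, as CPM, was 3.25, 1.69, 2.51, 2.46 and 2.01 in responders, 1.48, 1.71, 1.51 and 1.26 in non-responders and 1.84, 1.56, 1.05, 1.61 and 1.13 in controls. As log2 ratios the means were 1.22 ± 0.36 and 0.57 ± 0.18 for responders and non-responders, a difference of 0.65 (two-sided exact permutation test, p = 0.0317, adjusted over 6 comparisons 0.0317). Responder 26R overlapped with non-responder 32R. The adjusted p rose to between 0.0571 and 0.0714 without any 1 of 24L, 29L, 30L, 30R, 33L, 33R or 35L, with differences of 0.53 to 0.70.
For Psmb9 to Psmb6 the ratio was 2.0, 1.21, 1.68, 1.46 and 1.33 in responders, 0.95, 1.10, 0.86 and 0.80 in non-responders and 1.27, 1.07, 0.64, 0.92 and 0.75 in controls. Responders lay above all non-responders, with a log2 difference of 0.71 (exact permutation p = 0.0159, the smallest that 5 against 4 tumors allow, adjusted 0.0190). The ratios were taken without removal of the length trend. Psmb9 (1355 bases) is longer than Psmb6 (795 bases), and 33R had the lowest ratio of the non-responders.
For Psmb10 to Psmb7 it was 1.47, 0.80, 1.01, 1.04 and 0.78 in responders, 0.53, 0.62, 0.56 and 0.47 in non-responders and 0.78, 0.66, 0.42, 0.54 and 0.40 in controls. These responders also lay above all non-responders, with a log2 difference of 0.87 (exact permutation p = 0.0159, adjusted 0.0190). Against control IgG the log2 differences were 0.73, 0.74 and 0.87 in the same order of pairs, higher in responders (exact permutation p = 0.0159 each, adjusted 0.0190), with overlap between the groups in each pair. With 1 averaged value per mouse, the adjusted exact permutation p was 0.0686 to 0.114 for the 6 comparisons. Before adjustment, 4 against 3 mice, as with non-responders, cannot reach below 0.0571. With controls the comparison was 4 against 4 mice, which can reach 0.0286.
Taken alone, Psmb10 was called higher in responders than in non-responders (0.72, SE 0.21, adjusted p = 0.0411) and than in controls (0.74, SE 0.19, adjusted p = 0.0215). The call against non-responders was lost without any 1 of 17R, 24L, 29L, 30L, 30R, 32R, 33L or 33R (adjusted p of 0.0503 to 0.106), with 1 library per mouse (0.0780), with no filter on low counts (0.0610) and with the length trend and 33R removed (0.0511), and that against controls without 20R (0.0627) or 24L (0.0646). Psmb8 and Psmb9 were at 0.32 and 0.43 against non-responders (adjusted p = 0.282 and 0.198) and at 0.61 and 0.60 against controls (0.0359 and 0.0589). The call of Psmb8 was lost without 16R, 17R, 20R, 24L, 30L or 30R (adjusted p of 0.0610 to 0.104).

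**Figure D5:**
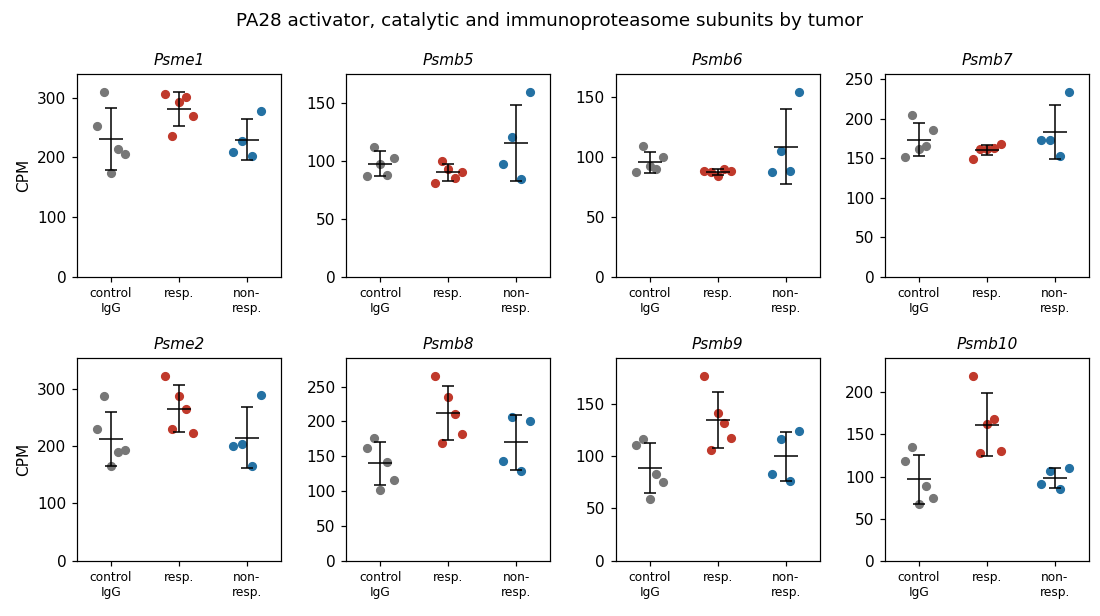
CPM of the PA28 genes, the 3 constitutive protease subunits and their 3 interferon-inducible counterparts in each tumor (points), with mean and SD per group (bars). Psmb5, Psmb6 and Psmb7 overlapped between groups with non-responder 33R highest, while Psmb10 in responders (128.1 to 219.3 CPM) lay above all non-responders (85.4 to 109.8).

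Against control IgG tumors, 0 of the 43 genes were called in responders in either direction by edgeR (7.88% of all genes higher and 5.20% lower). DESeq2 called 0 higher and 3 lower (Psmc2, Psmd1 and Psmd12), against 9.14% and 7.30% of the genes it tested. An unadjusted p under 0.05 was found for 5, against 27.9% of all genes, and groups did not overlap in 0, against 8.34% of all genes higher and 6.72% lower. The log2 fold change was below 0 for 35 genes, against 51.6% of all genes, with a median of -0.11, against -0.01 over all genes.
The smallest p among the members was that of Psmd1, the large scaffold of the cap base. It had 145.1, 168.2, 181.4, 173.6 and 171.8 CPM in responders and 193.9, 203.4, 179.9, 197.3 and 212.8 in controls. Responder 30L overlapped with control 16R (-0.23, SE 0.07, adjusted p = 0.0511). It was called lower in 9 of 11 alternative fits, and without 16R (adjusted p = 0.0449), 30L (0.0492) or 33R (0.0299), the last of which called 11.1% of all genes higher and 9.24% lower. Psmd12 (-0.24, SE 0.08, adjusted p = 0.0592) was called in 5 alternative fits and without 33R (0.0349), and Psmc2 was at -0.23 (SE 0.08, adjusted p = 0.0781).
PA28 again lay above 0, at 0.28 for Psme1 (SE 0.14, adjusted p = 0.208) and 0.32 for Psme2 (SE 0.17, adjusted p = 0.234). Control 14R had the highest Psme1 of all tumors, and without it Psme1 was called higher (0.41, adjusted p = 0.0462). With the length trend removed, 4 genes were called higher in responders (Psma4 0.23, Psme1 0.36, Psme2 0.41 and Psmg4 0.29) and 2 lower (Psmd1 -0.26 and Psmd12 -0.22), against 10.1% and 8.67% of all genes. Without 33R as well, Psmd9 and Psmd14 were also called lower (-0.21 and -0.23), against 11.7% of all genes higher and 10.7% lower. As log2(TPM + 1), Psma4 (0.30) and Psme1 (0.45) were called higher and 0 genes lower, against 9.34% and 1.87% of all genes.
Between non-responders and controls 0 of the 43 genes were called, as were 0% of all genes (edgeR). An unadjusted p under 0.05 was found for 1 of the 43, Psmg4 (0.38, SE 0.16, and 0.12 without 33R), against 4.67% of all genes. The median of the members was 0.09, and -0.04 without 33R. The 3 comparisons share tumors with each other, so their values are not independent.

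Other genes of the ubiquitin and proteasome system, outside the symbol rule, were counted in the same fit. Of 30 listed, 29 were found and tested (Paaf1 was not matched). Against non-responders 0 were called higher and 1 lower, and against controls 0 higher and 2 lower, beside the 5.08% and 4.80%, and the 7.88% and 5.20%, of all genes given above. The gene called lower in both was Zfand2a, a stress-inducible protein that binds the proteasome (-0.47, SE 0.13, adjusted p = 0.0364 against non-responders, and -0.51, SE 0.12, adjusted p = 0.0157 against controls). The call against non-responders was lost without any 1 of 17R, 24L, 26R, 30L, 30R, 32R or 33R, with adjusted p of 0.0520 to 0.111, and as log2(TPM + 1) (limma, 0.148). It was also lost in an edgeR fit of these groups alone (adjusted p = 0.0841) and with the length trend and 33R removed (0.0848). Ufd1, a cofactor of the p97 segregase, was called lower against controls (-0.24, SE 0.07, adjusted p = 0.0342). That call was lost without any 1 of 14R, 16R, 17R, 20R, 24L, 26R, 30R or 35L (adjusted p of 0.0503 to 0.0999). It was also lost with no filter on low counts (edgeR, 0.0989) and as log2(TPM + 1) (limma, 0.425).
Nfe2l1 (NRF1), the transcription factor that raises proteasome genes when proteasome function is impaired, was at 0.02 against non-responders (SE 0.12, adjusted p = 0.943). The core maturation factor Pomp was at -0.28 (adjusted p = 0.225, and -0.05 without 33R), the ubiquitin receptor Adrm1 at -0.27 (adjusted p = 0.0669, 0.0243 without 29L and 0.225 without 33R), and the inhibitor Psmf1 at -0.09 (adjusted p = 0.424). The median over the 29 genes was -0.10.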

How the data were processed

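RNA of 14 tumors was enriched for mRNA with oligo(dT) beads. The authors deposited, for each tumor, RSEM tables of expected counts and TPM per Ensembl gene, and FPKM, which was not used. The submitters' processing notes name STAR, RSEM and the build mm10, with no versions. RSEM shares reads among near-identical genes, so such genes are uncertain, and oligo(dT) selection makes counts sensitive to RNA breakdown.
Symbols and positions came from the GENCODE annotation of GRCm38 (53620 of 53801 genes matched). Expected counts were rounded, low counts were filtered with filterByExpr (16287 genes left), and all 14 tumors were fitted together with TMM factors in edgeR 4.0.16 (R 4.3.3; quasi-likelihood test, Benjamini-Hochberg adjustment over all genes). CPM values use TMM-scaled library sizes. The scripts were tested on simulated data. For a second fit, a loess curve (span 0.5) of log2 CPM on gene length was removed from each library. TPM values were tested as log2(TPM + 1) with limma 3.58.1. Ratios within tumors used CPM + 0.5 and exact permutation tests. The other alternatives were DESeq2 1.42.0, limma-voom, mouse as a random effect, 1 library per mouse, other size factors, no filter, a fit of the groups compared alone, and leaving out each tumor.
Every member is accounted for by part. Values in every tumor were given for the protease subunits, the activators, the genes with the smallest p and the highest TPM in each part, and those called. Psma4, Psmd1, Psmd4, Psmd8, Psmd12 and Psme2b were named as well, without values in every tumor of the 3 groups, once their values were known. The members, lists and alternatives were chosen with earlier results of these data known. Of the 14 marker lists, 1 is not reported here. No pair of tumors agreed within sampling noise, so each was counted as a sample. A count of 3 corresponds to at most 9.03e-06% of a library, which covers counting error only.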

Additional observations from a re-analysis of the deposited data

Results flagged for a closer look

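In groups of 4 or 5 tumors, a tumor was listed when its gap to the nearest other tumor was a large share of the group's range (Dixon's test at the 95% level). Of 69 groups tested 3 were listed, and chance alone lists about 1 in 20. The log2 CPM of Psme3 was 6.98 in non-responder 33R and 7.09 in each of the other 3 non-responders. The mean log2 CPM of all 43 genes was 6.50 in responder 24L and 6.61 to 6.65 in the other 4 responders. The mean over the 20S core was 6.50 in 24L and 6.58 to 6.60 in the other 4. The causes were not tested.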

How the results depend on the processing

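Against non-responders, the 1 member called became 2 with DESeq2, 3 with the mouse as a random effect (limma-voom), 2 with 1 library per mouse, 5 with the length trend removed (3 higher, 2 lower), 3 as log2(TPM + 1) (all higher) and 0 in a fit of the groups compared alone. Leaving out 1 tumor gave 0 to 3 (3 without 33L, 0 without 24L, 30L, 30R, 32R, 33R or 35L). Against controls, the count of 0 became 3 with DESeq2, 1 with limma-voom, 2 with the mouse as a random effect, 3 with 1 library per mouse, 1 with DESeq2 size factors, 1 with upper quartile factors, 6 with the length trend removed, 2 as log2(TPM + 1), 1 in a fit of those groups alone and 8 with the length trend and 33R removed. Leaving out 1 tumor gave 0 to 2, the latter without 33R. Between non-responders and controls it stayed at 0 in all 14 such fits. The share of all genes called changed with the fit as well. Against non-responders it was 1.79% lower and 3.01% higher without 33R, and 6.42% lower and 6.39% higher with the length trend removed. Where no share of all genes is given for a fit, its count of members is not a result about the members alone. The family median of -0.20 became 0.07 as log2(TPM + 1) and -0.02 with the length trend and 33R removed, and ran from -0.26 to -0.08 over the tumors left out.
With tumors of a mouse averaged, the differences in log2 ratio against non-responders were 0.59 for Psmb8 to Psmb5 (adjusted exact permutation p = 0.114), 0.65 for Psmb9 to Psmb6 and 0.84 for Psmb10 to Psmb7 (0.0686 each), and against controls 0.77, 0.82 and 0.96 (0.0686 each). Leaving out 1 tumor gave, against non-responders, 0.53 to 0.76 for Psmb8 to Psmb5, 0.61 to 0.80 for Psmb9 to Psmb6 and 0.73 to 0.96 for Psmb10 to Psmb7.
The log2 fold change against non-responders turned sign in 25 of the 43 members as log2(TPM + 1), in 6 with the length trend removed, in 7 without 33R and in 12 with both removed. Among the members with values in every tumor these were, as log2(TPM + 1), where all genes had a median of 0.17, Psmb4 0.01, Psmb7 0.07, Psmc2 0.02, Psmc3 0.08, Psmd5 0.23, Psme3 0.14 and Psmg4 0.02. With the length trend removed they were Psme4 -0.04 and Psmg4 0.05, and without 33R as well, Psmb7 0.00, Psmc3 0.01, Psme4 -0.02 and Psmg4 0.13. Psmg4 ran from -0.36 to 0.00 over the tumors left out. None of these values was called, and the cause was not tested. No paired analysis was possible because tumors of 1 mouse were always in the same group.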
